A study of Mus musculus with 18 samples.

Results

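Aire, Fezf2 and Chd4 are the 3 genes that were knocked out in this study of mouse medullary thymic epithelial cells (mTECs). They were taken by symbol from the count tables, as 3 of the 49585 genes in the Aire and Fezf2 tables and 3 of the 21969 genes in the Chd4 table. The question was what became of each gene's own RNA, and of that of the other 2 genes, in each mutant. Each library gave 3 kinds of read for a gene: exon reads, intron reads, and exon-exon reads, which cross a splice junction and are a part of the exon reads.

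mTECs express a great many genes that otherwise belong to single organs, and present them to developing T cells so that self-reactive cells are removed. Aire, the autoimmune regulator, is a nuclear protein that promotes many of these tissue-restricted genes. Fezf2, a zinc finger transcription factor also known for its role in cortical projection neurons, promotes another set in mTECs. Chd4 is the ATP-dependent remodelling subunit of the nucleosome remodelling and deacetylase (NuRD) complex, which slides nucleosomes and removes acetyl groups from histones.

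The 18 RNA-seq libraries formed 6 groups of 3. Aire KO mice and their own wild-type group (WT for Aire), and Fezf2 KO mice and a separate wild-type group (WT for Fezf2), were C57BL/6. Chd4 conditional knockout (cKO) mice carried Chd4 flox/flox and Foxn1-Cre, a recombinase driven by a promoter of thymic epithelial cells, so that other cells keep Chd4. Their controls carried Chd4 flox/flox without Cre, and both groups were C57BL/6x129P2. The labels call the Fezf2 mice KO, while the column names call these libraries Fezf2cKO. No source used here gives the exons removed in each mutant or says that the triplicates came from separate animals, so each p-value speaks only of the spread among the libraries, which may be technical. The letters A, B and C name a group's libraries in barcode order and pair nothing. The Aire and Fezf2 libraries shared one sequencing run and the Chd4 libraries were in another, so the levels of the Chd4 groups are tested only against each other.

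Exon reads per library ranged from 3571570 to 17220157. Library B of the WT for Fezf2 stood apart from its group: exon-exon reads were 44.5% of its exon reads, against 49.4% and 49.7% in the other libraries of that group, and its chi-square per degree of freedom was 39.3 against library A and 35.4 against library C, while other replicate pairs had 4.07 to 10.2. Results of the Fezf2 comparison that rest on it are given with and without it. All 10 markers of mTECs on the list used (such as Epcam, Krt5, Krt14 and Foxn1) were present in every group, with summed levels of 5597 to 7827 CPM (counts scaled to the exon reads of a library, with TMM factors). Markers of thymocytes summed to 425 to 475 CPM in Fezf2 KO libraries and to 680 to 1159 CPM in the WT for Fezf2, with 8 of 15 lower in the KO, against 4.87% of all genes called, and none of them at 0. Without library B, 13 of 15 were lower in the KO, against 12.6% of all genes called. In the other groups they summed to 220 to 403 CPM. In sorted but bulk samples, fewer cells of a type and less RNA per cell cannot be told apart.

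The 3 genes differ in how much of their locus the tables count as exon. Aire (ENSMUSG00000000731, GRCm38 chromosome 10, 78030022 to 78043610, minus strand) has 3825 bases of exon in 30 exons of 16 transcripts in the Aire and Fezf2 tables, but 1938 bases in 18 exons of 11 transcripts in the Chd4 table. Chd4 (ENSMUSG00000063870, chromosome 6, 125095981 to 125130591, plus strand) has 8019 bases in 54 exons in the Aire and Fezf2 tables and 7320 bases in 48 exons in the Chd4 table. Fezf2 (ENSMUSG00000021743, chromosome 14, 12341892 to 12345865, minus strand) has 2304 bases in 5 exons of 1 transcript in both. Intron and junction shares are therefore set against each other only within a table.

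Reads across the exon joints of Fezf2 were at 0 in the Fezf2 KO, so these joints are shown. GENCODE M21 (GRCm38) has a Fezf2 transcript of 2188 bases and 5 exons on the minus strand of chromosome 14. Of its 4 junctions, the 3 whose printed bases lie in the coding sequence are given as 15 bases on each side of the joint, with the last 2 bases of the upstream exon and the first 2 of the downstream exon in capitals.
Exon 2 to exon 3, 12344349 to 12344052: gaagtgtgcggcaAGGTgttcaatgctcac
Exon 3 to exon 4, 12343918 to 12343771: attatccatacccAGGAaaaaccacataag
Exon 4 to exon 5, 12343639 to 12342758: gctttcaccaaaaAGGGaactacaagaatc
The introns removed there measure 296, 146 and 880 bases. A read counted as exon-exon has to contain such a joint.

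Aire RNA was about 2-fold higher in Aire KO mTECs, in all 3 kinds of read. Aire had 3737, 4088 and 3997 CPM of exon reads in Aire KO libraries, against 1942, 1810 and 2302 CPM in the WT for Aire. Every KO library lay above every WT library. The log2 fold change was 0.97 ± 0.11 (SE), a 1.95-fold difference with an adjusted p of 9.77e-05 in edgeR's quasi-likelihood test with Benjamini-Hochberg adjustment over all genes tested. In that comparison 15.1% of the genes tested passed the threshold of 0.05. Reads counted to Aire's introns, which cannot be told apart from reads of Dnmt3l where the 2 genes overlap and of which 563 of 1290 matched uniquely in Aire KO library A, were 307, 323 and 320 CPM in Aire KO libraries, against 150, 140 and 175 CPM in the WT for Aire. Their log2 fold change was 1.03 ± 0.18 (edgeR adjusted p = 0.000278, with 6.6% of genes called). Exon and intron changes did not differ by more than their error, with a difference of -0.07 ± 0.15 on the log2 scale (edgeR adjusted p = 0.955, with 0.352% of genes called).

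Reads across Aire's splice junctions were also more abundant in the KO. They were 1922, 2155 and 2035 CPM in Aire KO libraries, against 1110, 1014 and 1277 CPM in the WT for Aire, a log2 fold change of 0.85 ± 0.11 (edgeR adjusted p = 0.000134, with 12.3% of genes called). They made up a smaller share of Aire's exon reads in the KO. The share was 51.4%, 52.7% and 50.9% in Aire KO libraries, against 57.2%, 56.0% and 55.4% in the WT for Aire. The groups did not overlap, and the difference in means of -4.52 percentage points had the smallest p that 3 against 3 libraries allow (exact two-sided permutation test, p = 0.1). Of 11134 genes with 20 or more exon reads in every library, 18.2% had a fall in junction share at least as large, and the median gene fell by 0.612 points. The fit of junction against other exon reads gave -0.26 ± 0.07 on the log2 scale for Aire (edgeR adjusted p = 0.0666), which did not pass the threshold that 0.517% of genes passed. It passed without WT library C (-0.29 ± 0.07, edgeR adjusted p = 0.0216). The genes called numbered 55, and 9 to 175 on leaving out each library, with 9 without KO library B and 175 without WT library C.

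**Figure D1:**
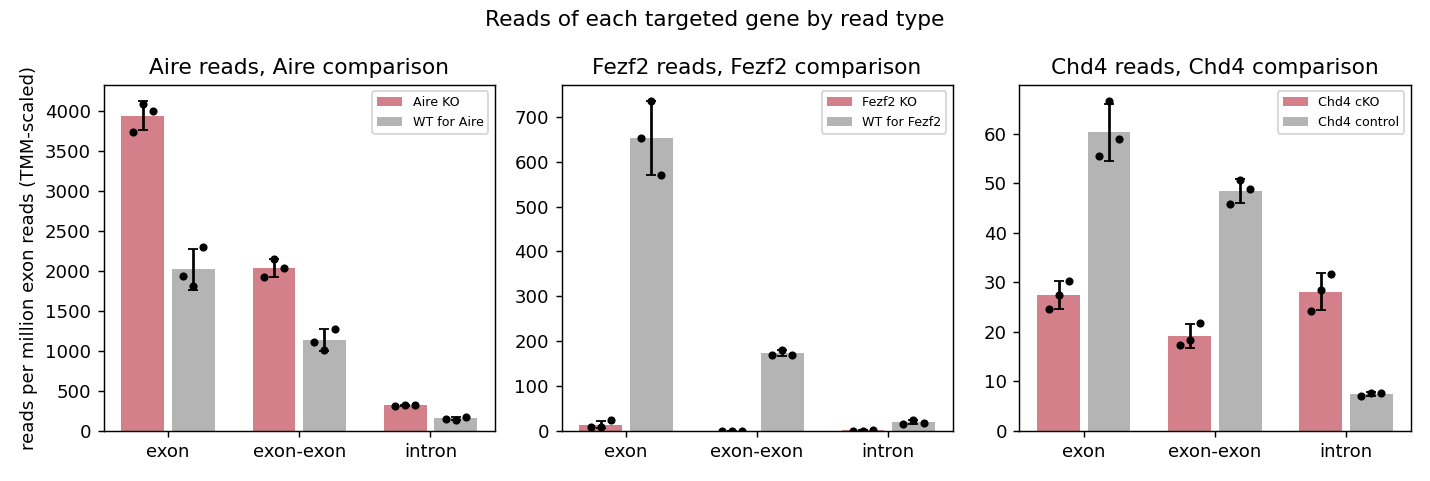
Reads of each targeted gene in its own comparison, in CPM, by read type. Bars are means, whiskers SD and dots the 3 libraries, with the knockout left of its control. Aire is higher in the KO in all 3 read types, Fezf2 is near 0 in all 3, and Chd4 is lower in exon and exon-exon reads and higher in intron reads.

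Fezf2 RNA was close to absent in Fezf2 KO mTECs. Exon reads of Fezf2 numbered 52, 41 and 102 in Fezf2 KO libraries, against 3113, 2805 and 2367 in the WT for Fezf2. In CPM these were 9.09, 8.44 and 23.4 in the KO, against 653, 735 and 569.9 in the WT. The highest KO library thus stood far below the lowest WT library. The log2 fold change was -5.59 ± 0.41, a 48.2-fold difference (edgeR adjusted p = 0.000169, with 4.87% of genes called). It was -5.34 to -6.21 on leaving out any 1 library, and library C, the KO library with the most Fezf2 reads, gave the value farthest from 0 when it was left out.

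No read in the Fezf2 KO crossed a Fezf2 splice junction. Exon-exon reads numbered 0, 0 and 0 in Fezf2 KO libraries, against 808, 690 and 701 in the WT for Fezf2. With a floor of 3 reads over the 3 KO libraries, junction reads were at least 860-fold lower in the KO (edgeR adjusted p = 0.000646, with 1.17% of genes called). None of the 195 exon reads left in the KO was counted across a joint such as those printed above. A count of 0 among 195 allows a junction share of up to 1.54%, against 26.5% in the pooled WT reads, and per library the exact (Clopper-Pearson) 95% upper limits were 6.85%, 8.60% and 3.55%. These limits cover counting error only.

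Junction reads were also set against the other exon reads of each gene. In the fit of junction reads against other exon reads, Fezf2 was the only gene of 11162 to pass in the Fezf2 comparison (0.00896% of genes, edgeR adjusted p = 0.046), with 271 genes at an unadjusted p under 0.05. The call was lost on leaving out 5 of the 6 libraries in turn, with adjusted p up to 0.428, and was kept without library B of the WT, where 4 genes passed. Among 7994 genes with at least 40 exon reads in all 6 libraries and a junction share of at least 20% in the WT for Fezf2, Fezf2 was the only one with 0 junction reads in the KO. These cut-offs lie just below Fezf2's own values, 41 exon reads in KO library B and a pooled WT share of 26.5%. The count is therefore a description and no test.

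The few Fezf2 intron reads fell along with the exon reads. They numbered 2, 1 and 3 in Fezf2 KO libraries, against 72, 92 and 74 in the WT for Fezf2. The log2 fold change of -5.46 ± 0.49 had the smallest p of the 10428 genes tested (edgeR adjusted p = 7.66e-06, with 2.03% of genes called). The intron share of Fezf2 was 2.98% ± 0.67 in the KO and 2.82% ± 0.49 in the WT (SD, n = 3 each), so no difference between exon and intron loss was detectable with so few reads. In the fit that tests this difference, 0 of 9360 genes passed (0.0%) and 442 had an unadjusted p under 0.05. That fit gave 8 genes without the filter on low counts and 9 without library B of the WT. The thymocyte markers given above were lower in the same KO libraries, and their part in the Fezf2 values was not tested.

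Chd4 RNA in Chd4 cKO mTECs changed in opposite directions by read type. Exon reads of Chd4 stood at 24.6, 27.5 and 30.2 CPM in Chd4 cKO libraries, against 55.4, 66.5 and 58.9 CPM in the control. All cKO libraries lay below all controls, and the log2 fold change was -1.14 ± 0.13, a 2.21-fold difference (edgeR adjusted p = 0.000159, with 28.6% of genes called). Exon-exon reads stood at 17.3, 18.3 and 21.8 CPM in Chd4 cKO libraries, against 45.9, 50.7 and 48.8 CPM in the control. Their log2 fold change was -1.35 ± 0.14 (edgeR adjusted p = 5.05e-05, with 23.6% of genes called).

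Intron reads of Chd4 rose. They numbered 168, 485 and 148 in Chd4 cKO libraries, against 25, 31 and 32 in the control, or 24.2, 28.4 and 31.7 CPM in the cKO against 7.03, 7.67 and 7.66 CPM in the control. The lowest cKO library was more than 3-fold above the highest control. The log2 fold change was 1.90 ± 0.20, a 3.74-fold difference (edgeR adjusted p = 1.04e-06, with 20.3% of genes called). Exon and intron reads thus moved in opposite directions. The exon minus intron difference was -3.04 ± 0.24 on the log2 scale (edgeR adjusted p = 1.58e-07, with 7.12% of genes called and a median over all genes of -0.22), the fourth smallest p of 10070 genes.

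As a share, intron reads were 49.6%, 50.8% and 51.2% of Chd4's exon and intron reads in Chd4 cKO libraries, against 11.3%, 10.3% and 11.5% in the control. The exact 95% intervals of the cKO libraries began at 44.1% or above, and those of the controls ended at 16.2% or below. The difference in means was 39.5 percentage points, against a median of 1.06 over 13090 genes, and 16 of these genes (0.122%) had a rise at least as large, Chd4 included. The test over 3 against 3 libraries gave its smallest possible p (exact two-sided permutation test, p = 0.1). Counted from uniquely matching reads alone the difference was 35.5 points. All cKO libraries had more intron reads in general, 14.4% to 14.8% of their gene reads against 11.9% to 12.5% in the control.

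Exon and intron reads of Chd4 were also added together. Their sum averaged 55.5 ± 6.58 CPM in Chd4 cKO libraries and 67.7 ± 5.97 CPM in the control (SD, n = 3 each). Chd4's junction share was also lower, at 70.2%, 66.5% and 72.3% in Chd4 cKO libraries, against 82.7%, 76.2% and 82.9% in the control. The groups did not overlap (exact two-sided permutation test, p = 0.1, the smallest possible). The difference in means was -10.95 percentage points, against a median of -1.3 over 12025 genes with 20 or more exon reads in every library. Of these genes, 3.6% had a fall at least as large, Chd4 included. Exon reads off the junctions averaged 8.29 ± 0.933 CPM in the cKO and 11.8 ± 3.49 CPM in the control. The fit of junction against other exon reads gave -0.89 ± 0.23 (edgeR adjusted p = 0.0447, with 2.27% of genes called), and this call was lost on leaving out any cKO library or control library A, with adjusted p from 0.0996 to 0.347.

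**Figure D2:**
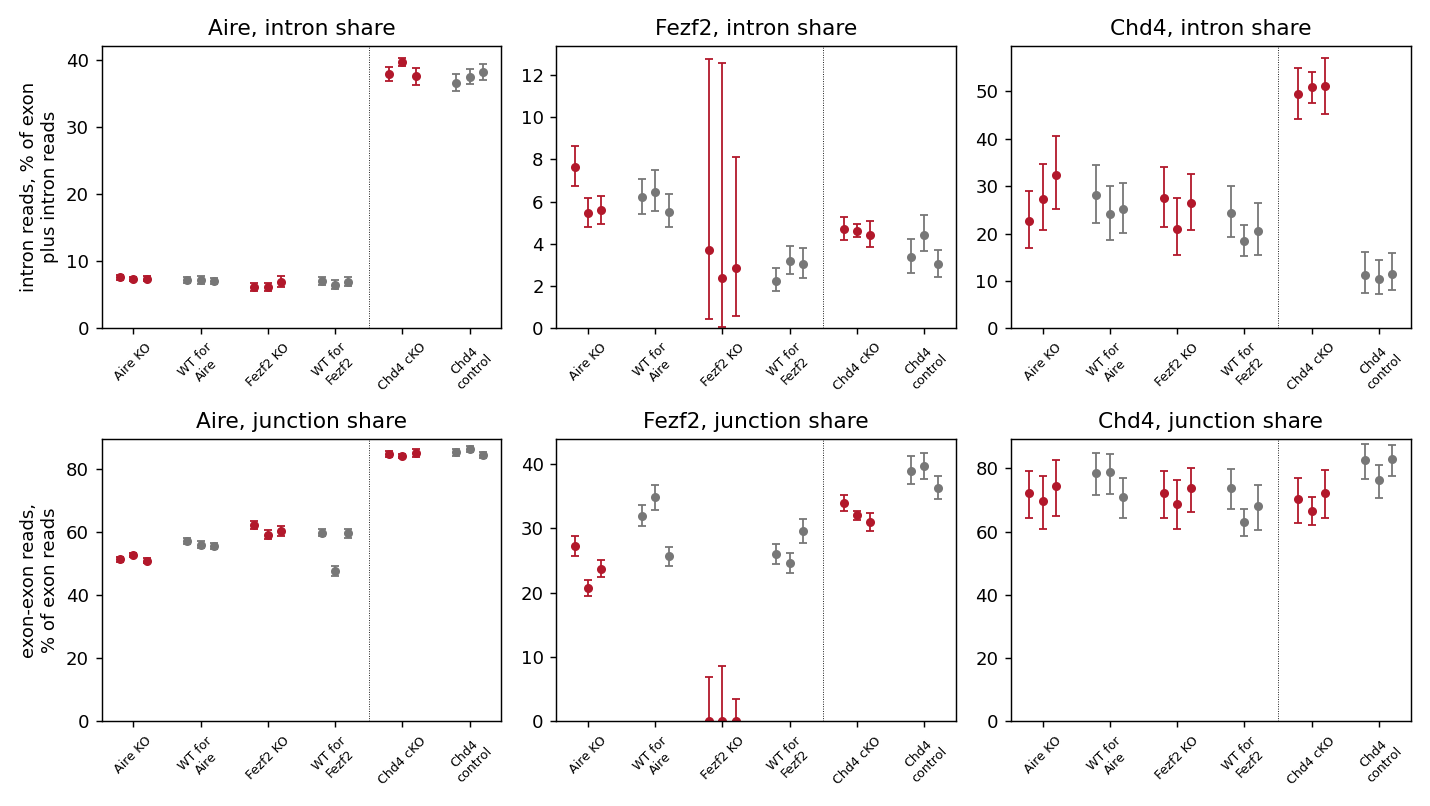
Intron share (intron reads as a percentage of exon plus intron reads) and junction share (exon-exon reads as a percentage of exon reads) of each gene in every library, with exact 95% intervals that cover counting error. The dotted line parts the Aire and Fezf2 tables from the Chd4 table, which use another annotation. Fezf2 KO libraries have a junction share of 0, and Chd4 cKO libraries an intron share near 50%, against about 11% in the controls.

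Beyond their own knockouts, Aire and Fezf2 both passed in Chd4 cKO mTECs and moved in opposite directions. In that comparison 28.6% of all genes were called on exon reads, 23.6% on exon-exon reads and 20.3% on intron reads. Aire stood at 766, 827 and 767 CPM of exon reads in Chd4 cKO libraries, against 1033, 1047 and 1018 CPM in the control. Its log2 fold change was -0.39 ± 0.07 (edgeR adjusted p = 0.00294), a 1.31-fold fall with no overlap. Aire's exon-exon reads gave -0.41 ± 0.08 (edgeR adjusted p = 0.00419), and its intron reads -0.33 ± 0.19 (edgeR adjusted p = 0.226), which did not pass. With library sizes and TMM factors from intron reads, the intron value was -0.58 ± 0.17 and passed (edgeR adjusted p = 0.0272). Intron reads were 467, 545 and 462 CPM in Chd4 cKO libraries, against 597, 629 and 629 CPM in the control. Aire's junction share, 84.6% ± 0.498 in the cKO and 85.3% ± 0.953 in the control (SD, n = 3 each), differed by less than the spread of the controls.

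Fezf2 rose in the same libraries. Its exon reads stood at 865, 972 and 922 CPM in Chd4 cKO libraries, against 557, 559 and 659 CPM in the control. The log2 fold change was 0.64 ± 0.09, a 1.55-fold rise with no overlap (edgeR adjusted p = 0.000656). Intron reads rose to 42.7, 47.2 and 42.8 CPM in Chd4 cKO libraries, against 19.4, 26 and 20.6 CPM in the control, with a log2 fold change of 1.01 ± 0.17 (edgeR adjusted p = 0.000295). Exon-exon reads rose least, by 0.39 ± 0.09 on the log2 scale (edgeR adjusted p = 0.00764). The exon minus intron difference of -0.37 ± 0.20 did not pass (edgeR adjusted p = 0.271), and its median over all genes was -0.22. Intron reads had a median log2 fold change of 0.24 over all genes, and 51.1% of genes had a rise in intron share at least as large as Fezf2's. Fezf2's junction share was 33.96%, 32.0% and 31.05% in Chd4 cKO libraries, against 38.99%, 39.7% and 36.3% in the control. Of 12025 genes with 20 or more exon reads in every library, 14.8% had a fall at least as large. The interaction of -0.38 ± 0.10 did not pass (edgeR adjusted p = 0.0593). It passed without control library C (-0.44 ± 0.10, edgeR adjusted p = 0.00198) and without the filter on low counts (edgeR adjusted p = 0.0365). When the spread was estimated from all 18 libraries, neither exon-read call held in the cKO, with edgeR adjusted p of 0.0696 for Aire and 0.055 for Fezf2.

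**Figure D3:**
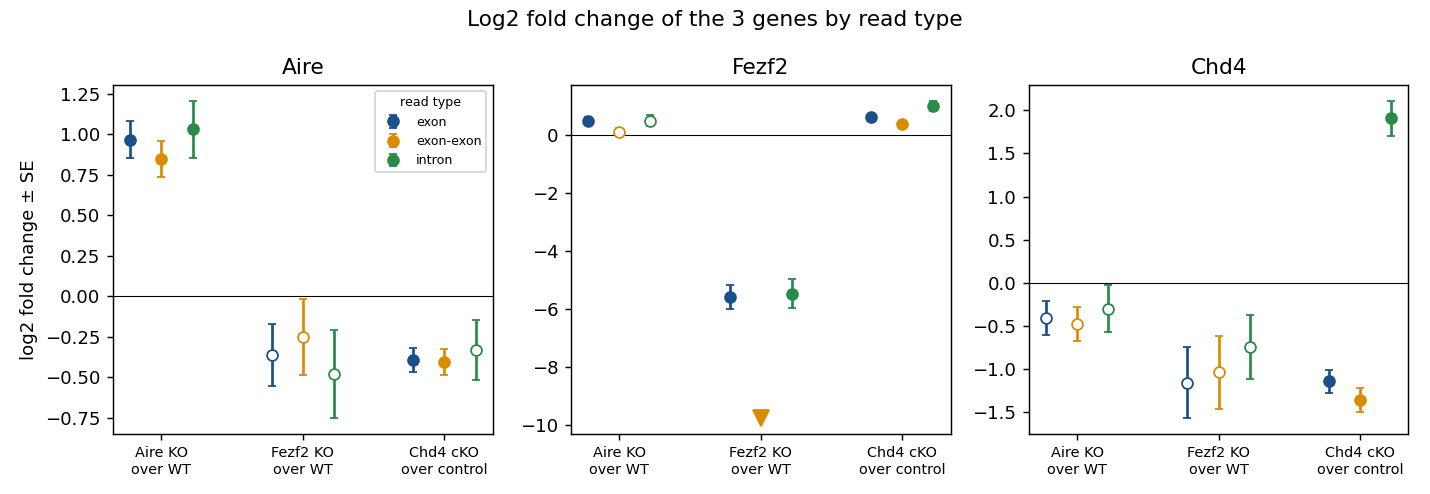
Log2 fold change of Aire, Fezf2 and Chd4 in each knockout over its own control, by read type, with SE from edgeR. Filled points have an adjusted p under 0.05 and the triangle is the least fall of Fezf2 junction reads, set by the floor of 3 reads. Intron and exon points lie on opposite sides of 0 only for Chd4 in the Chd4 cKO.

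In Aire KO mTECs, Fezf2 exon reads were modestly higher and Chd4 did not pass, where 15.1% of all genes were called on exon reads. Fezf2 stood at 709.8, 853 and 1059 CPM in Aire KO libraries, against 636, 541 and 701 CPM in the WT for Aire. The lowest KO library lay just above the highest WT library. A log2 fold change of 0.48 ± 0.15 was close to the threshold (edgeR adjusted p = 0.0413), and it did not pass without KO library B or C or WT library A or B, with adjusted p from 0.0912 to 0.153, nor in the fit on 18 libraries. Fezf2's intron reads gave 0.50 ± 0.19 (edgeR adjusted p = 0.127). Its exon-exon reads were nearly level, at 193, 177 and 252 CPM in Aire KO libraries, against 203.5, 188.5 and 179.6 CPM in the WT for Aire (0.12 ± 0.13 on the log2 scale, edgeR adjusted p = 0.664).

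Exon reads of Fezf2 off the junctions averaged 667 ± 146 CPM in the Aire KO and 436 ± 84.0 CPM in the WT for Aire (SD, n = 3 each). Junction against other exon reads gave -0.50 ± 0.12 (edgeR adjusted p = 0.0388, with 0.517% of genes called). This call was lost without KO library B or C or WT library A or B, with adjusted p of 0.122 to 0.477. Fezf2's junction share was 27.2%, 20.7% and 23.8% in Aire KO libraries, against 32.0%, 34.8% and 25.6% in the WT for Aire. Those ranges overlap (exact two-sided permutation test, p = 0.2). Chd4 exon reads stood at 36.0, 26.8 and 24.1 CPM in Aire KO libraries, against 32.1, 39.04 and 43.8 CPM in the WT for Aire. The difference of -0.40 ± 0.20 did not pass (edgeR adjusted p = 0.206).

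In Fezf2 KO mTECs, neither Aire nor Chd4 passed the threshold with all 6 libraries. Of all genes, 4.87% were called there on exon reads, and 12.6% without library B. Aire stood at 977, 1042 and 805 CPM in Fezf2 KO libraries, against 1297, 1088 and 1242 CPM in the WT for Fezf2, where 1088 belongs to library B. The KO range lay below the WT range in CPM, though not in the RPKM that the authors deposited. The log2 fold change was -0.36 ± 0.19 (edgeR adjusted p = 0.337). Without library B it was -0.43 ± 0.12 and passed (edgeR adjusted p = 0.0346), and the exon-exon reads, at -0.25 ± 0.23 with all libraries, became -0.41 ± 0.12 (edgeR adjusted p = 0.047). Library B had an Aire junction share of 47.7%, against 59.8% and 59.5% in the other WT libraries for Fezf2.

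Chd4 in the Fezf2 comparison rested on the same library. It stood at 26.4, 31.1 and 38.3 CPM in Fezf2 KO libraries, against 41.7, 128 and 43.6 CPM in the WT for Fezf2. Library B held 489 WT reads, and the others 199 and 181. With library B the change was -1.15 ± 0.41 on the log2 scale (edgeR adjusted p = 0.154), and without it -0.42 (edgeR adjusted p = 0.178). The test passed in the fit on 18 libraries and without the filter on low counts, both of which keep library B, with edgeR adjusted p of 0.0158 and 0.00882.

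The difference between effects was tested for each gene in a fit of all 18 libraries. Aire differed between the Aire and Fezf2 effects by 1.35 ± 0.18 on the log2 scale (edgeR adjusted p = 2.51e-05, with 16.9% of genes called) and between the Chd4 and Aire effects by -1.34 ± 0.18 (edgeR adjusted p = 3.25e-05, with 16.5% of genes called). Its Chd4 and Fezf2 effects differed by 0.01 ± 0.18 (edgeR adjusted p = 0.985, with 14.9% of genes called). Fezf2 differed between its own knockout and either of the others, by 6.11 ± 0.37 for Aire minus Fezf2 and 6.28 ± 0.37 for Chd4 minus Fezf2. Its effects in the Chd4 cKO and the Aire KO differed by 0.17 ± 0.33 (edgeR adjusted p = 0.796). With all libraries, Chd4 passed in none of the 3 contrasts, the largest being 0.78 ± 0.44 for Aire minus Fezf2 (edgeR adjusted p = 0.25). Without library B, its Chd4 minus Aire difference was -0.71 ± 0.24 and passed (edgeR adjusted p = 0.0372). With all libraries this difference was -0.72 ± 0.44 (edgeR adjusted p = 0.309). Library B is in neither of these effects, but it enters the estimate of the spread that all groups share. The effects that share neither controls nor libraries are compared here, but the Chd4 libraries also differ from the others in strain, run and annotation, which cannot be told apart from the genotype.

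As levels per length (exon-read CPM per kilobase of exon, scaled within each comparison), Aire was highest in the Aire KO. Within the Aire and Fezf2 tables its level was 1030 ± 47.6 in the Aire KO and 528 ± 66.6 in the WT for Aire, and 246 ± 32.0 in the Fezf2 KO and 316 ± 28.4 in the WT for Fezf2 (SD, n = 3 each). None of these 4 ranges overlapped, and the order by mean was Aire KO, WT for Aire, WT for Fezf2 and Fezf2 KO. In the RPKM that the authors deposited, Fezf2 KO library B, at 229.7, lay above WT for Fezf2 library B, at 215.9. In the Chd4 table Aire's level was 406 ± 17.95 in the Chd4 cKO and 533 ± 7.49 in the control. The WT groups differed in Aire by -0.79 ± 0.19 on the log2 scale (WT for Fezf2 over WT for Aire), which did not pass (edgeR adjusted p = 0.131, with 0.128% of genes called) but passed without library B (-0.73 ± 0.12, edgeR adjusted p = 0.00745). With all libraries kept it also passed in DESeq2 (adjusted p = 0.00522) and in the fit on 18 libraries (edgeR adjusted p = 0.00211). Thymocyte markers were higher in the WT for Fezf2, 4 of 15 with library B and 14 of 15 without it, where 3.93% of all genes were called, and their part in this difference was not tested.

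The level of Fezf2 per kilobase was 399 ± 23.3 in the Chd4 cKO and 257 ± 25.3 in its control, 379 ± 76.3 in the Aire KO and 272 ± 34.8 in the WT for Aire, and 5.92 ± 3.67 in the Fezf2 KO and 283 ± 35.8 in the WT for Fezf2. The ranges of the Aire KO and the WT for Fezf2, and of both WT groups, overlapped. Between the WT groups, Fezf2 intron reads differed by -1.13 ± 0.29 on the log2 scale (WT for Fezf2 over WT for Aire, edgeR adjusted p = 0.0823, with 0.634% of genes called), and this difference passed without library B (-1.35 ± 0.26, edgeR adjusted p = 0.000732) and in DESeq2 with all libraries (adjusted p = 0.012). The intron share was 2.82% ± 0.49 in the WT for Fezf2 and 6.07% ± 0.487 in the WT for Aire, with no overlap. The difference in means was -3.25 percentage points (exact two-sided permutation test, p = 0.1, the smallest possible). Of 13107 genes with 20 or more exon plus intron reads in every library, 31.1% had a fall at least as large. The median difference over these genes was -1.18 points.

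Chd4 had the lowest mean level per kilobase of the 3 genes in each of the 6 groups. It was 3.61 ± 0.774 in the Aire KO and 4.78 ± 0.736 in the WT for Aire, and 3.98 ± 0.749 in the Fezf2 KO and 8.87 ± 6.15 in the WT for Fezf2, with library B at 15.97. Ordered by mean, each of these ranges overlapped the next. In the Chd4 table it was 3.74 ± 0.383 in the cKO and 8.23 ± 0.778 in the control. In the Fezf2 KO its range of 3.29 to 4.78 overlapped that of Fezf2 itself, 3.66 to 10.15. The RPKM values that the authors deposited gave the same order of the 6 groups for each gene.

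**Figure D4:**
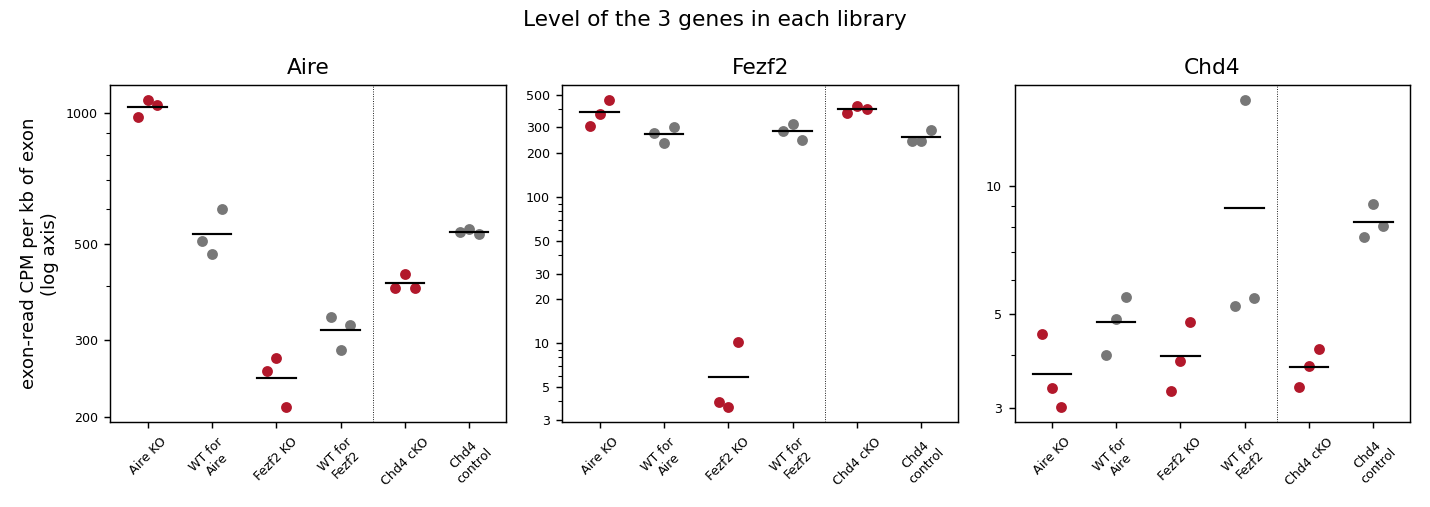
Level of Aire, Fezf2 and Chd4 in each library, as exon-read CPM per kilobase of exon on a log axis. Dots are libraries, lines are group means, and the dotted line parts the Aire and Fezf2 tables from the Chd4 table. Aire is highest in the Aire KO, Fezf2 drops only in the Fezf2 KO, and library B of the WT for Fezf2 is high in Chd4.

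Genes next to Aire moved too, and the nearest overlaps it. Dnmt3l, which helps DNA methyltransferases in the germ line, starts at 78041947 inside the span of Aire, and without strand in the counts their reads there cannot be told apart. Of the 3 nearest tested genes on each side of Aire, 4 of 6 rose in the Aire KO, against 15.1% of all genes called. Dnmt3l averaged 143 ± 3.38 CPM in the Aire KO and 94.1 ± 6.17 CPM in the WT for Aire (0.60 ± 0.11 on the log2 scale, edgeR adjusted p = 0.00194). Icosl, the ligand of the T cell costimulator ICOS, averaged 497 ± 53.3 CPM in the Aire KO and 299 ± 11.4 CPM in the WT for Aire (0.73 ± 0.11, edgeR adjusted p = 0.000581). Pfkl, the liver phosphofructokinase, rose by 0.77 ± 0.17, and the cation channel gene Trpm2 by 0.83 ± 0.24 (edgeR adjusted p = 0.00607 and 0.0352).

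The same neighbours were read in the other mutants. In the Chd4 cKO, where Aire fell and 28.6% of all genes were called, Icosl fell by 0.62 on the log2 scale (edgeR adjusted p = 0.000977), while Dnmt3l and Trpm2 rose by 0.78 ± 0.18 and 0.80 ± 0.17. In the Fezf2 KO Dnmt3l was the only one of the 6 to pass, at -1.14 ± 0.25 (edgeR adjusted p = 0.0314), against 4.87% of all genes called. D10Jhu81e passed as well without library B, where 12.6% of all genes were called.

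Around Fezf2, none of the 6 nearest tested genes passed in the Aire KO or the Fezf2 KO, against 15.1% and 4.87% of all genes called. Cadps, a gene of vesicle priming, passed in the Fezf2 KO without library B, where 12.6% of all genes were called. Of the 6 nearest tested in the Chd4 cKO, 2 rose and 2 fell, against 28.6% of all genes called. In the Chd4 cKO, Cadps rose with Fezf2 (344 ± 44.2 CPM in the cKO and 201 ± 15.2 CPM in the control, 0.78 ± 0.11, edgeR adjusted p = 0.000585), and so did Ptprg, a receptor tyrosine phosphatase (0.60 ± 0.12). Synpr and Sntn, with means under 6 CPM in both groups, fell. Around Chd4, none of 6 passed in the Aire KO or the Fezf2 KO, while 2 rose and 1 fell in the Chd4 cKO, against the same shares. In the Chd4 cKO, Iffo1 rose to 14.2 ± 2.56 CPM, against 5.06 ± 0.977 CPM in the control (1.47 ± 0.26, edgeR adjusted p = 0.00221), Zfp384 rose by 0.36 ± 0.11, and Nop2, a nucleolar RNA methyltransferase gene that starts just past the end of Chd4, fell by 0.47 on the log2 scale (edgeR adjusted p = 0.0225).

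The starts of Aire and Fezf2 are shown because these genes moved in opposite directions in the Chd4 cKO. They are the RefSeq promoters of GRCm38.p6, 300 bases ending just inside each gene, on the minus strand, with matches on either strand to the TATA box TATAAA, to the CAAT box CCAAT and to the GC box GGGCGG in capitals.
Aire, chr10:78043561-78043860: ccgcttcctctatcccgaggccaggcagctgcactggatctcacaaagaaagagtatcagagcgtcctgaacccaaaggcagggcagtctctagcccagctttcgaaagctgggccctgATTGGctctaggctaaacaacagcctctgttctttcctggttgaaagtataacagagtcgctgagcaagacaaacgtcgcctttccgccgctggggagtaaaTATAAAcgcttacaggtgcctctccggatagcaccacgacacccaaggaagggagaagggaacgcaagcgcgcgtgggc
Fezf2, chr14:12345816-12346115: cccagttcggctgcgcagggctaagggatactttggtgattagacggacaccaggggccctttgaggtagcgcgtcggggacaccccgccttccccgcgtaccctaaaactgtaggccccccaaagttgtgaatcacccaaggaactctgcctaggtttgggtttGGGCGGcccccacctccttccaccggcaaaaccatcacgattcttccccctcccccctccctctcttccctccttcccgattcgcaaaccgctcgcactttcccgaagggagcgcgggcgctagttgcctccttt
Aire's window holds 1 TATA box, 1 CAAT box on the opposite strand and no GC box, and that of Fezf2 holds 1 GC box and neither of the other motifs. No 2 of these matches overlap. Of the 32851 promoters in the same table, 13.6% hold the TATA box, 37.4% the CAAT box and 35.7% the GC box. The GC content is 55.3% for Aire and 61.3% for Fezf2, against a median of 52.7%, and the windows hold 16 and 20 CpG pairs, against a median of 7. A match is a description of the letters and not a binding site.

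Paralogs of the 3 genes were read beside them. In the Chd4 cKO 2 of 6 tested rose and 1 fell, against 28.6% of all genes called. In the Aire KO 2 of 5 tested rose and 0 fell, against 15.1%. Chd3, the closest relative of Chd4 and an alternative NuRD remodeller, averaged 117 ± 3.82 CPM in the Chd4 cKO and 78.0 ± 12.3 CPM in the control (0.59 ± 0.12, edgeR adjusted p = 0.00424). Chd5, the third of that family, averaged 6.19 ± 0.378 CPM in the cKO and 2.07 ± 0.642 CPM in the control (1.58 ± 0.36, edgeR adjusted p = 0.00879). Chd3 also rose in the Aire KO (0.56 ± 0.17, edgeR adjusted p = 0.0371), where Chd4 did not pass. Sp140, which shares the SAND, PHD and CARD domains of Aire, rose in the Aire KO to 104 ± 13.1 CPM, against 65.3 ± 7.14 CPM in the WT for Aire (0.68 ± 0.14, edgeR adjusted p = 0.00398). Sp100, of the same family, fell by 0.42 on the log2 scale in the Chd4 cKO (edgeR adjusted p = 0.00798). Fezf1, the paralog of Fezf2, passed in none of the 3 comparisons, with -0.43 ± 0.42 in the Fezf2 KO. None of the 5 paralogs tested in the Fezf2 KO passed with all libraries, against 4.87% of all genes called. Sp100 and Sp110 passed as lower without library B, where 12.6% of all genes were called.

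Of the 12 other NuRD subunits on the list, 5 rose and 1 fell in the Chd4 cKO, with a median log2 fold change of 0.34 against 0.00 for all genes and 28.6% of all genes called. Gatad2a, a scaffold subunit, averaged 130 ± 6.40 CPM in the Chd4 cKO and 74.8 ± 3.27 CPM in the control (0.79 ± 0.09, edgeR adjusted p = 0.000184). Mta2 and Mta3, which anchor the deacetylases, rose by 0.49 ± 0.08 and 0.43 ± 0.11, while the histone chaperone Rbbp7 fell by 0.41 on the log2 scale (edgeR adjusted p = 0.00437). None of the 12 passed in the Aire KO or in the Fezf2 KO with all libraries, and Mbd2 and Cdk2ap1 passed as higher in the Fezf2 KO without library B.

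Among 20 partners of the Aire protein, 2 rose and none fell in the Aire KO, against 15.1% of all genes called. These were Crebbp, an acetyltransferase that binds Aire, which averaged 115 ± 4.88 CPM in the Aire KO and 70.9 ± 5.52 CPM in the WT for Aire (0.70 ± 0.12, edgeR adjusted p = 0.00112), and the deacetylase Sirt1, which averaged 457 ± 31.7 CPM in the Aire KO and 296 ± 62.6 CPM in the WT (0.63 ± 0.14, edgeR adjusted p = 0.00937). In the Chd4 cKO, Sirt1 fell with Aire, by 1.01 on the log2 scale (edgeR adjusted p = 9.76e-05), while Hnrnpl, a splicing factor, rose by 0.41 ± 0.10. In the Fezf2 KO, Top2a, a topoisomerase of dividing cells, was the only one to pass, at -1.001 ± 0.242 (edgeR adjusted p = 0.0445), in the libraries in which thymocyte markers were also lower.

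RANK, CD40 and lymphotoxin β receptor signal through NF-κB to switch on Aire. Of 17 genes of these inputs, 3 rose and 1 fell in the Aire KO, none passed in the Fezf2 KO, and 2 rose and 1 fell in the Chd4 cKO, with median log2 fold changes of 0.14, -0.01 and 0.11. The shares of all genes called in these comparisons were 15.1%, 4.87% and 28.6%. Relb averaged 451 ± 26.6 CPM in the Aire KO and 333 ± 9.59 CPM in the WT for Aire (0.44 ± 0.10, edgeR adjusted p = 0.00976), Map3k14 and Traf6 rose by 0.53 ± 0.13 and 0.54 ± 0.13, and Ltbr fell by 0.71 on the log2 scale (edgeR adjusted p = 0.0132). In the Chd4 cKO, Nfkb2 averaged 363 ± 12.3 CPM in the cKO and 511 ± 28.9 CPM in the control (-0.495 ± 0.082, edgeR adjusted p = 0.00152), and Map3k14 rose by 0.55 ± 0.10. When library B was left out, Tnfrsf11a, Tnfrsf11b and Cd40 passed as higher in the Fezf2 KO, against 12.6% of all genes called.

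Of 11 tested transcription factors of thymic epithelium, 1 rose and 1 fell in the Aire KO, against 15.1% of all genes called. Irf8 rose with Aire (942 ± 87.8 CPM in the KO and 498 ± 33.1 CPM in the WT for Aire, 0.92 ± 0.11, edgeR adjusted p = 0.000103) and Elf3 fell. Both fell in the Chd4 cKO, at -0.63 ± 0.09 and -0.83 ± 0.14, and in all 4 factors rose and 3 fell there, against 28.6% of all genes called. In the Fezf2 KO, Pax9 averaged 98.9 ± 3.12 CPM in the KO and 48.4 ± 5.81 CPM in the WT for Fezf2 (1.03 ± 0.19, edgeR adjusted p = 0.0139), and Pax1 rose by 0.89 ± 0.21. These were the 2 of 11 called, against 4.87% of all genes, and without library B Trp63 and Ets2 also passed, as lower.

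Markers of mature mTECs, the cells in which Aire is highest, moved beside Aire in the Aire KO, with 8 of 14 higher and 2 lower, against 15.1% of all genes called, and a median log2 fold change of 0.36. Hdc, histidine decarboxylase, averaged 2200.0 ± 70.3 CPM in the Aire KO and 1334 ± 99.2 CPM in the WT for Aire (0.72 ± 0.10, edgeR adjusted p = 0.000388). The chemokines Ccl22 and Ccl17 were the 2 that fell, with log2 fold changes of -2.29 and -1.92. In the Chd4 cKO 5 of 14 fell and 1 rose, against 28.6% of all genes called. Among those that fell were Hdc, at 521 ± 82.4 CPM in the cKO and 1448 ± 116 CPM in the control (-1.47 ± 0.12, edgeR adjusted p = 1.63e-05), Cd86 and Ccl22. In the Fezf2 KO 3 fell (Hdc, Ccl17 and Cd52) and none rose, against 4.87% of all genes called, and without library B 10 of 14 passed, 6 lower and 4 higher, against 12.6%.

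Markers of other cells were counted in the same libraries, where the shares of all genes called were 15.1% in the Aire KO, 4.87% in the Fezf2 KO (12.6% without library B) and 28.6% in the Chd4 cKO. In the Aire KO, 1 rose and 2 fell of 8 cortical epithelial markers, 1 rose of 14 tested thymocyte markers, 1 rose and 1 fell of 8 for B cells, 2 rose and 2 fell of 6 for dendritic cells and macrophages, and 2 rose and 3 fell of 6 for fibroblasts and endothelium. The 4 calls for dendritic cells and macrophages went both ways. Adgre1 averaged 0.846 ± 0.293 CPM in the Aire KO and 25.6 ± 7.17 CPM in the WT for Aire (-4.89 ± 0.40, edgeR adjusted p = 5.69e-06). Csf1r also fell (-2.16 ± 0.32), while Cd68 and Zbtb46 rose (0.85 ± 0.21 and 0.49 ± 0.15). In the Fezf2 KO with all libraries, none of these lists but the thymocyte one had a call. Without library B, 2 cortical epithelial markers were higher and 1 lower, 1 B cell marker and 1 dendritic cell or macrophage marker were lower, and 1 marker of fibroblasts and endothelium was higher and 1 lower. In the Chd4 cKO the counts were 1 higher and 1 lower for cortical epithelium, none of 13 for thymocytes, 2 higher for B cells, 1 higher and 2 lower of 7 for dendritic cells and macrophages, and 1 lower of 5 for fibroblasts and endothelium. The mTEC markers had 3 of 10 lower in the Aire KO, 1 higher in the Fezf2 KO (Krt5) and 5 higher there without library B, and 2 higher and 3 lower in the Chd4 cKO. Their part in the values of the 3 genes was not tested.

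Over the 3 knockout comparisons, likeness to each gene was measured as the Euclidean distance of log2 exon-read fold changes among 13784 genes tested in all 3. The nearest to Aire were Akap12 (distance 0.104), Plcxd2, AU022252, Ank and Ufsp1 (0.142). Those nearest to Chd4 were Sv2c (0.167), Map2k6, Kbtbd13, Baat and Soat2 (0.305). Fezf2 had no such close neighbour: the nearest were Pnp2 (1.32), Sap25, Hoxc11, Foxd3 and Lypd1 (2.55). The distances rest on 3 fold changes each and carry no test. For Chd4, the value in the Fezf2 KO was -1.15, but -0.42 without library B of the WT for Fezf2. The list of genes nearest to Chd4 thus rests on that library, and likeness was not measured without it.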

How the data were processed

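Sorted mTECs gave total RNA, and the SMART-seq v4 kit for ultra low input was used, per the labels' protocols. Per the file headers, reads were trimmed single reads from Ion Torrent barcodes. The submitters' processing notes name DESeq2, mm10 and GRCm38. No source used here names the aligner, states how strand was handled, or gives the exons deleted. The authors deposited counts of total and unique exon, intron and exon-exon reads per library, and RPKM, which equal exon reads per kilobase scaled to gene reads for 99.76 to 100% of genes within 1%. The Aire and Fezf2 tables also hold the authors' signed fold change (a score) with its corrected p-value, and a deposited summary table gives log2 levels with p and q values. These were not used for tests. The summary levels lay within 0.01 of the log2 mean of the deposited RPKM for 99.99 to 100% of genes in the Chd4 groups. In the Aire and Fezf2 groups they did so for only 0.36 to 0.53% of genes. A total of 90 further per-library columns were not used. Columns name a group and barcode, so a library has a group and no replicate number, and other read types were taken from columns sharing the name of the exon-read column.

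Each comparison was fitted on all genes of its 6 libraries with edgeR 4.0.16 (R 4.3.3): filterByExpr, TMM from exon reads for all read types, quasi-likelihood F tests and Benjamini-Hochberg adjustment, with a threshold of 0.05. SE is the log2 fold change divided by the square root of F. Read types were compared by an interaction with library as a block, and effects in a fit of 18 libraries. Shares have Clopper-Pearson intervals. The scripts were tested on simulated data. DESeq2 1.42.0, RLE scaling, no filter, unique reads, own library sizes and leaving out each library were alternatives. Named were the 3 genes, their 3 nearest tested neighbours on each side, up to 4 called members of each list by smallest adjusted p, and the 5 genes most alike; some of these are not reported here. The genes and lists were chosen with earlier results of these data known. Junctions come from GENCODE M21 and promoters from RefSeq, with both genes matched by symbol.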

Additional observations from a re-analysis of the deposited data

Results flagged for a closer look

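Aire and Fezf2 each had effects that differed between mutants in the fit of all 18 libraries. The change of Aire in the Aire KO minus that in the Fezf2 KO was 1.35 on the log2 scale (edgeR adjusted p = 2.51e-05), and the change of Aire in the Chd4 cKO minus that in the Aire KO was -1.34 (edgeR adjusted p = 3.25e-05). In the same fit, the change of Aire itself passed in the Aire KO (0.99, edgeR adjusted p = 1.37e-05, with 15.9% of genes called). Its changes in the Fezf2 KO (-0.36, edgeR adjusted p = 0.0669) and in the Chd4 cKO (-0.35, edgeR adjusted p = 0.0696) did not pass. The change of Fezf2 in the Aire KO minus that in the Fezf2 KO was 6.11 (edgeR adjusted p = 8.17e-10), and its change in the Chd4 cKO minus that in the Fezf2 KO was 6.28 (edgeR adjusted p = 1.01e-09). Over 19 alternatives each, these 4 differences kept their sign and their call.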

How the results depend on the processing

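No paired analysis was possible because the columns carry no replicate number. Depth limits Chd4 most, with 102 to 489 exon reads per library in the Aire and Fezf2 tables, and the 195 exon reads of Fezf2 in its KO.

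Exon-read calls numbered 2257 in the Aire comparison (3458 without the filter on low counts), 765 in that of Fezf2 (1403 with DESeq2, 1406 without the filter, 2169 in the fit of 18 libraries), 4339 in that of Chd4 (2375 in the fit of 18) and 20 between the WT groups (448 with DESeq2, 461 without the filter, 4 with unique reads, 632 in the fit of 18). On leaving out each library in turn they ranged from 169 to 2034 for Fezf2 and from 0 to 636 for the WT groups, with the highest of both without library B of the WT for Fezf2.

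On leaving out each library, the log2 difference of junction and other exon reads was -0.29 to -0.23 for Aire in the Aire KO (-0.26 and a call without the filter, edgeR adjusted p = 0.0319), -7.67 to -6.91 for Fezf2 in the Fezf2 KO, where fitted values depend on the prior count, and -1.12 to -0.74 for Chd4 in the Chd4 cKO. Chd4's rise in intron share there was 35.5 points with unique reads. Small values changed sign. In the Aire KO, exon minus intron gave -0.30 to 0.062 for Chd4 and -0.12 to 0.14 for Fezf2, and Fezf2 exon-exon reads -0.032 to 0.23. Between the WT groups, Fezf2 exon reads gave -0.091 to 0.094 and Chd4 intron reads -0.15 to 0.62. The Chd4 minus Fezf2 difference was -0.10 to 0.080 for Aire (-0.028 with RLE factors) and -0.69 to 0.34 for Chd4, lowest without library B. The cause was not tested.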

Other observations

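The authors' deposited summary table gave a difference in log2 level of 0.765 for Aire in the Aire KO, -5.594 for Fezf2 in the Fezf2 KO and -1.181 for Chd4 in the Chd4 cKO. Only in the Chd4 groups did these levels match the log2 mean of the deposited RPKM for nearly all genes. For Fezf2 in the Aire KO, the authors' deposited summary table gave q = 0.00823, while the corrected p of the EDGE test in the authors' deposited count table was 0.179.

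Counts of uniquely matching intron reads of Aire set library B of the WT for Fezf2 apart again. In Fezf2 KO libraries 106, 129 and 103 Aire intron reads were unique, of 362, 330 and 262 in total. In the WT for Fezf2 170, 213 and 152 were unique, of 469, 288 and 385 in total, where library B is the second value of each.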
